A study of Mus musculus with 4 samples.

Results

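Collagens that lie outside basement membrane and outside the classical cartilage set were examined for open chromatin in the fetal mouse lung. The members were all protein-coding genes of build mm10 whose symbol has the form Col, a number, a and a number, leaving out the Col4, Col15 and Col18 genes and Col2a1, Col9a1 and Col11a1. This gave 33 of the 44 collagen genes of that symbol form, among 21887 protein-coding genes. By class they were 3 major fibrillar chains, 6 minor fibrillar chains, 6 beaded-filament chains, 8 fibril-associated chains (FACIT), 3 network-forming chains, 1 anchoring-fibril chain, 4 transmembrane chains and 2 others. The data were ATAC-seq, in which the Tn5 transposase cuts and tags accessible DNA, on 4 libraries of wild-type lung at E15.5, the embryonic day. They formed 1 group, with no second genotype, treatment or stage, so no contrast between conditions could be drawn. The series belongs to work on HOXA5, a Hox protein needed for lung formation, and the gene programme it drives.

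Collagens are helical proteins of several α chains that give connective tissue its strength. Fibrillar collagens are secreted as procollagens, trimmed, assembled into fibrils and cross-linked. FACIT collagens decorate those fibrils, while the beaded-filament and network-forming classes build assemblies of their own. In the lung, mesenchymal cells and smooth muscle are the main source of types I, III, V and VI, while basement membrane collagens lie beneath epithelium and endothelium. Open chromatin shows where DNA is accessible, not how much of a gene is transcribed. The lungs were profiled whole, so fewer cells of a type and less accessibility per cell cannot be told apart.

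Replicate 1 stood apart from the other libraries. Its list held 134503 peaks against 186199, 211678 and 192842 in replicates 2 to 4, and its median fold enrichment was 8.99 against 3.73 to 3.90. In the peak names, its list carries a French word meaning fresh and the other lists the word frozen, while the labels describe frozen lungs for every library. Because fold values of different libraries are not on 1 scale, each peak is given as a rank: its percentile of fold enrichment within its own library, where 100 is the strongest peak. The labels do not say whether replicates are separate embryos, so an SD over libraries gives only how far these samples vary, and that variation may be technical. An exact sign-flip test over 4 libraries cannot give a p below 1 in 8, and none was used. All 6 lung markers (Nkx2-1, Foxa2, Sftpc, Tbx4, Tbx5 and Foxf1) had a gene-end peak in every library, as did Epcam and Pecam1, which mark epithelium and endothelium, and Myog and Sox10, which mark muscle and neural crest. The Sftpc peak also touches the neighbouring gene Bmp1. Over all protein-coding genes, 66.7% had a gene-end peak in every library. Alb, Ttr, Myh1, Ptprc and Krt5, markers of liver, muscle, leukocytes and basal epithelium, had one in none of the libraries. Hbb-bt, a globin gene of red blood cells, had one in replicates 1 and 4 alone, at ranks of 18.1 and 8.73. Mean ranks were 92.1 at Epcam, 53.8 at Sox10, 51.1 at Myog and 30.1 at Pecam1.

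Most collagen genes of the set were open. A gene was called open when each library had a peak within 1 kb of an annotated gene end, and 26 of 33 members met this (78.8%), against a background of 66.7% of all protein-coding genes. The members were long, with a median length of 106 kb against 17.2 kb, and among the 15177 genes within their length range 75.7% were open, close to the members' share. In single libraries 27, 26, 28 and 26 members had a gene-end peak (81.8%, 78.8%, 84.8% and 78.8%), against 69.2%, 73.2%, 73.9% and 73.8% of genes. Leaving out replicate 1 gave the same count, 26 of 33, against 70.4% of genes. Requiring the summit of a peak, its highest point, to lie within the window left 19 of 33 (57.6%) against 60.5%. A q of 1e-05 or less left 24 of 33 against 63.7%, and lists cut to equal length left 25 against 65.8%. A window of 0.5 kb gave 25 against 63.5%, a window of 2.5 kb 29 against 71.6%, and a peak in at least 3 of 4 libraries 26 against 71.5%. Col19a1 and Col17a1 had a gene-end peak in 1 to 3 libraries, a state held by 11% of genes. Col6a4, Col6a5, Col22a1, Col10a1 and Col28a1 had one in no library, a state held by 22.3% of genes. Thus the share of open members exceeded the share over all genes but was near that of genes within the members' length range. Those genes had a median length of 28.1 kb, so length was not matched.

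The gene-end peaks of the members did not rank above those of other genes. With absent peaks set to 0, the median rank over members was 84.9, against 87.7 over all genes and 91.4 over genes of the same length range. The median over members was 73.4, 87.4, 88.4 and 90.5 in replicates 1 to 4, so replicate 1 was lowest. Without replicate 1 the medians were 87.8 for members and 91.2 for all genes. A mean rank of 95 or more was reached by 8 members (24.2%) and by 31.0% of genes. Replicate 1 gave the lowest rank of the 4 libraries in 19 of the 26 open members (73.1%), and in 89.1% of all open genes. Setting absent peaks to 0 mixes the share of open genes with the rank of their peaks. Among open genes alone, the median of the mean rank was 87.7 for members. It was 94.5 for all genes and 94.6 for genes of the length range.

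**Figure D1:**
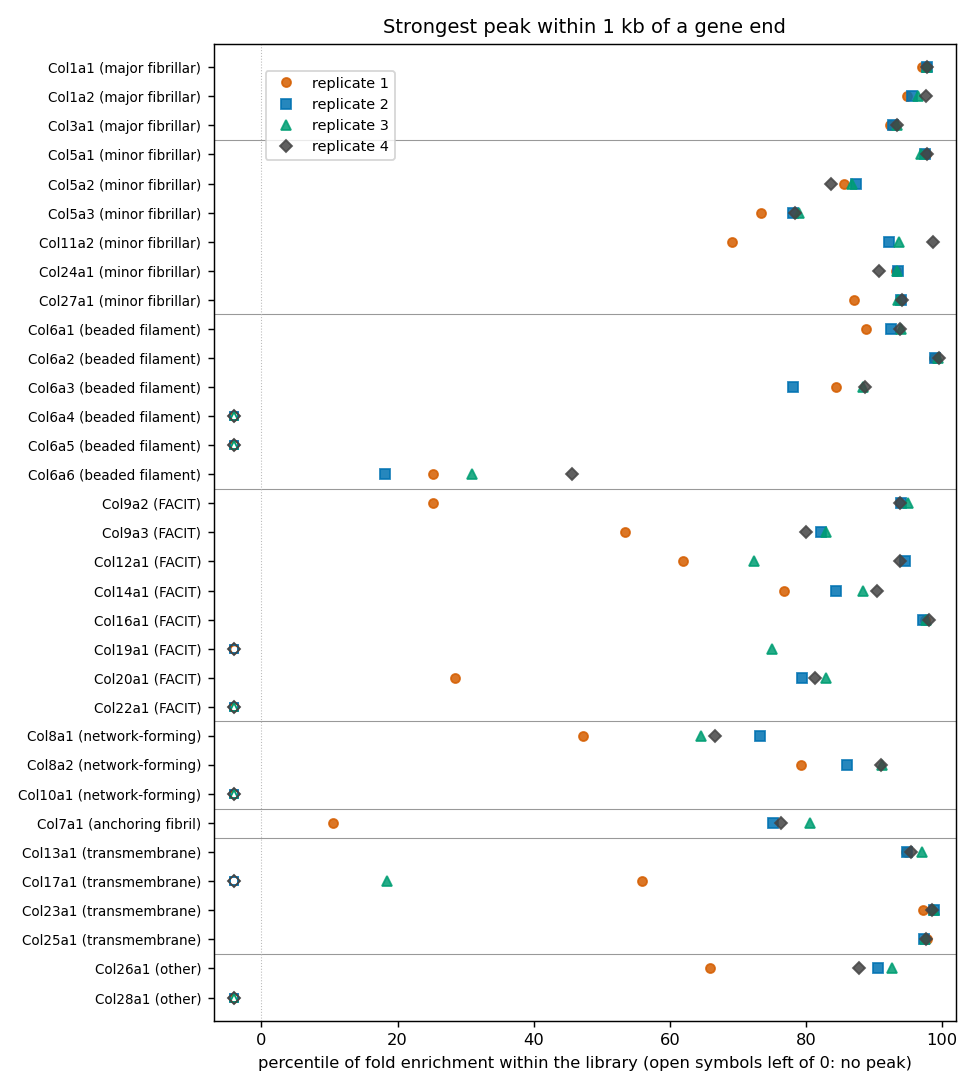
Rank of the strongest peak within 1 kb of either end of each collagen gene, as the percentile of fold enrichment within the library, for 4 libraries and 33 genes grouped by class; open symbols left of 0 stand for libraries with no such peak. Col6a2 lies between 98.8 and 99.5, Col7a1 in replicate 1 at 10.5, and 5 genes have no peak in any library.

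The promoters of the set differ widely in base composition. RefSeq promoter sequences of 300 bases ran from 250 before to 50 after the annotated start on GRCm38.p6 (mm10). They were matched by gene identifier for 26 members, 27 promoters in all since Col6a2 has a pair of annotated starts. Col1a1, Col5a2, Col9a3, Col12a1, Col14a1, Col22a1 and Col26a1 had no entry. Promoters rich in CpG dinucleotides are open in most cell types, while those poor in CpG tend to be used in particular tissues. A promoter was called open when a summit, not only a peak, lay within 1 kb of the start in every library. This held for 10.3% of the 6035 promoters with 0 to 4 CpG. Of the 5 member promoters in that range, those of Col3a1, Col6a1 and Col6a3 were open and those of Col20a1 and Col28a1 were not. Col3a1 encodes the chain of type III collagen of extensible tissues, and Col6a1 and Col6a3 encode chains of the type VI beaded filament. Their promoters are shown because all 3 were open with 0, 3 and 3 CpG, at chr1:45311288-45311587 (+ strand), chr10:76725995-76726294 (− strand) and chr1:90843922-90844221 (− strand), each read 5′ to 3′ on the gene's strand with CG dinucleotides and any TATAAA in capitals.
Col3a1: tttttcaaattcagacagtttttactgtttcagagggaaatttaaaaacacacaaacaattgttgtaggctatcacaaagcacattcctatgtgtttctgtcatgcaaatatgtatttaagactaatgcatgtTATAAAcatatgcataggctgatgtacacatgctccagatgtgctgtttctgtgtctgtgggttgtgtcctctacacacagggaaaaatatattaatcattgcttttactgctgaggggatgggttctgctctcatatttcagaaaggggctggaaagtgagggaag
Col6a1: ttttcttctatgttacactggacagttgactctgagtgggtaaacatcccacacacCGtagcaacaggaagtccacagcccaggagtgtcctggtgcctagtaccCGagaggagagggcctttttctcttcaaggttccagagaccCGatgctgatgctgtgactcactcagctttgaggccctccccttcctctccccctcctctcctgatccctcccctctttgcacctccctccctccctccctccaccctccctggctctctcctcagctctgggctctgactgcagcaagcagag
Col6a3: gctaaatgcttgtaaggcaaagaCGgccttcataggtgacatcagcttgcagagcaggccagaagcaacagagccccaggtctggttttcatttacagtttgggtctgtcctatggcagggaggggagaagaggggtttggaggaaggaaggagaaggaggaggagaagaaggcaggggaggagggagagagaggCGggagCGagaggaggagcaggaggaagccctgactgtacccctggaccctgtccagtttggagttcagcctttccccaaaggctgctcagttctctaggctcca

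At the Col3a1 start the summit ranked 92.4, 92.7, 93.3 and 93.3 in replicates 1 to 4, from folds of 63.6, 16.3, 14.2 and 15.2. It lay between −47 and 67 bp from the start, and the peak was narrow, 666 to 868 bp. The GC content of this promoter was 37.7%, and a TATAAA stood at base −117, further from the start than the usual place of a TATA box. At the Col6a1 start the ranks were 88.8, 92.6, 94.0 and 93.8, with replicate 1 lowest, and the summit lay at −74 to −22 bp from the start. Col6a1 held the only TGANTCA of the 27 member promoters (3.70%, against 6.99% of all 21263 promoters), at base −90. TGANTCA is a core shared by binding sites of AP-1 factors, and its presence says nothing of binding. At the Col6a3 start the ranks were 84.4, 78.1, 88.4 and 88.7, with replicate 2 lowest, and the summit lay at −72 to −27 bp from it.

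For contrast, the promoters of Col5a1 and Col16a1, rich in CpG, and of Col1a2, at the median CpG count of all promoters, were open, and that of Col10a1 was open in no library. Col1a2 encodes the α2 chain of type I collagen, Col5a1 a chain of type V collagen that starts type I fibrils, Col16a1 a FACIT chain, and Col10a1 the chain made by hypertrophic cartilage cells. They lie at chr6:4505368-4505667 (+), chr2:27886175-27886474 (+), chr4:130047590-130047889 (+) and chr10:34389731-34390030 (+), written as before.
Col1a2: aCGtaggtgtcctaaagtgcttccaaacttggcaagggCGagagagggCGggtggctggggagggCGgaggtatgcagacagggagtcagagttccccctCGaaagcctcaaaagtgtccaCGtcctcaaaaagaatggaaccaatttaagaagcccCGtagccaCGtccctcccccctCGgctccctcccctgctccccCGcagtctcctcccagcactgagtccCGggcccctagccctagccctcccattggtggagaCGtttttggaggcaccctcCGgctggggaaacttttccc
Col5a1: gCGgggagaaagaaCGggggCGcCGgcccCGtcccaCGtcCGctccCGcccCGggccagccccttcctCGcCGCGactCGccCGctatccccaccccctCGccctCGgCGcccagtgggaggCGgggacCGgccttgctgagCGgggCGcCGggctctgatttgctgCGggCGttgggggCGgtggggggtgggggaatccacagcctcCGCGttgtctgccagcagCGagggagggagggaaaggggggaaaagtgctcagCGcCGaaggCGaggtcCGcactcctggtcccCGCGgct
Col16a1: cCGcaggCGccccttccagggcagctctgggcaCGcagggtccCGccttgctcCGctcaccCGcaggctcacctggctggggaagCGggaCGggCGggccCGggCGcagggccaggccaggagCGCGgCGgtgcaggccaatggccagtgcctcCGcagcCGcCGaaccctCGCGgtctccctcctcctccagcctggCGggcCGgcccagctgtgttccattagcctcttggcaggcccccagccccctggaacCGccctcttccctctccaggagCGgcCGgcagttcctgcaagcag
Col10a1: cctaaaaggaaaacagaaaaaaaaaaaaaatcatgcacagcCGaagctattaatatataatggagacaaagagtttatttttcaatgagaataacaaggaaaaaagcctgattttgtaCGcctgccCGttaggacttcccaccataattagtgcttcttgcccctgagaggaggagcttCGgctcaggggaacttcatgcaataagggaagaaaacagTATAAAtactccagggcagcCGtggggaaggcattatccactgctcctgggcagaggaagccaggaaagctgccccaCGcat

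The Col1a2, Col5a1, Col16a1 and Col10a1 promoters hold 13, 34, 24 and 6 CpG. In Col1a2 a CCAAT lies at base −109 on the coding strand and another at base 1 on the opposite strand, and GGGCGG lies at −205 and −188, counted to the first base of the match with the start as base 1. Col10a1 has a TATAAA at −32, the usual place of a TATA box, and a TAATTA at −106. Over the 27 member promoters, on either strand, GGGCGG (a match to Sp1 sites) occurred in 17 (63.0%) against 46.2% of all promoters, and CCAAT (bound by NF-Y) in 7 (25.9%) against 38.2%. TATAAA occurred in 5 (18.5%) against 12.6%, and TAATTA (a core of many homeodomain sites) in 2 (7.41%) against 4.53%. TTGGC (part of nuclear factor I sites, overlapping CCAAT where ATTGGC occurs) was found in 10 (37.0%) against 47.9%. A match describes letters in the window, not a bound site.

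Across CpG classes the members did not follow all promoters evenly. With 5 to 9 CpG, 1 of 5 member promoters was open, the upstream start of Col6a2, against 42.4% of all promoters, and those of Col24a1, Col6a4, Col10a1 and Col17a1 were not. With 10 to 19 CpG, 6 of 10 were open, against 80.7%. With 20 CpG or more, 5 of 7 were open (Col5a1, Col5a3, Col16a1, Col23a1 and Col25a1), against 90.6%, and Col8a2 and Col13a1 were not. Col9a2, Col11a2, Col13a1, Col24a1, Col27a1 and Col8a2, not open by this measure, had a peak within 1 kb of the start in every library. In all 15 of 27 member promoters had a summit in every library (55.6%), against 58.6%. Both Col6a2 starts were among the 15, by the same peak, with a mean rank of 99.1. Median CpG was 12 for members and 13 for all promoters, and median GC content 60% and 56.3%. Over the 15 open member promoters the rank rose only loosely with CpG count (Spearman 0.347), much as over all 12460 open promoters (0.327), a description across promoters that share libraries.

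**Figure D2:**
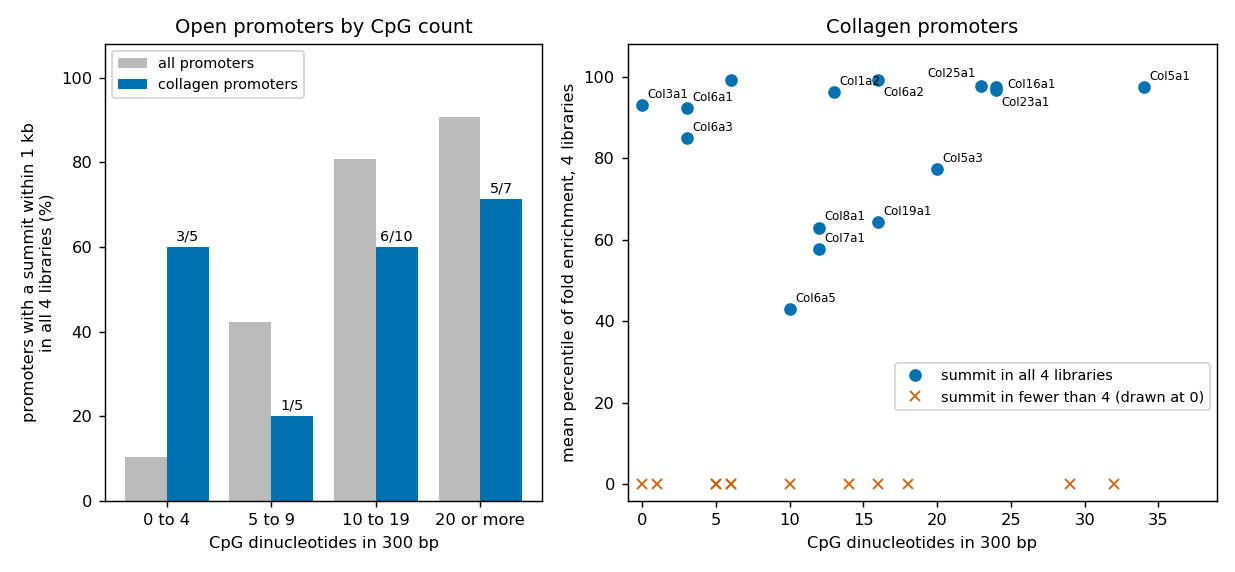
Left, share of promoters (%) with a peak summit within 1 kb of the start in all 4 libraries, by CpG dinucleotides in 300 bp, for all promoters and collagen promoters, with counts above the bars; right, mean percentile of fold enrichment over 4 libraries against CpG count for each collagen promoter, with promoters lacking a summit in some library drawn at 0. In the class of 0 to 4 CpG, 3 of 5 collagen promoters are open against 10.3% of all, and Col3a1 stands at 92.9 with 0 CpG.

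Where a start was annotated, the start side had a peak in every library more often than the 3′ end. A peak of every library lay within 1 kb of the start in 20 of 26 members (76.9%), against 66.6% of all genes and the same 76.9% of genes within the members' length range. A summit lay there in 14 of 26 (53.8%), against 60.9% of all genes and 72.1% of genes within the length range. The 3′ end had a peak in every library in 5 of 26 (19.2%: Col6a1, Col6a2, Col13a1, Col16a1 and Col23a1), against 17.7%. Some annotated starts lie inside the gene rather than at its end. The starts of Col19a1 and Col6a5 do so, and both had a summit within 1 kb of them in all 4 libraries, although their gene ends were not called open. At the Col19a1 start the ranks were 59.2, 68.5, 51.6 and 78.4, and at the Col6a5 start 45.5, 40.6, 30.9 and 54.7.

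The 3 major fibrillar genes, which supply the bulk of interstitial collagen fibrils, were all open. Col1a1 (chr11:94936224-94953042) encodes the α1 chain of type I collagen, and its strongest gene-end peak ranked 97.0, 97.7, 97.8 and 97.8 (mean 97.6 ± 0.39 SD, n = 4), from folds of 120, 38.6, 32.3 and 34.2. Its summit lay 841 to 879 bp inside the lower-coordinate end, and its strand was not used here. Col1a2 (chr6:4505618-4541543) ranked 94.9, 95.5, 96.5 and 97.6 (96.1 ± 1.2), with the summit at −123 to −42 bp from the start. Col3a1 (chr1:45311538-45349706) had the mean 92.9 ± 0.47. Col3a1 was below Col1a1 and Col1a2 in every library without overlap, whereas Col1a1 and Col1a2 overlapped.

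The 6 minor fibrillar genes were open too, at unequal ranks. Col5a1 (chr2:27886381-28039510) ranked 97.6, 97.5, 97.0 and 97.7 (97.5 ± 0.33). Col5a2 (chr1:45374331-45503282), the partner chain of type V collagen, ranked 85.5, 87.4, 86.8 and 83.6 (85.8 ± 1.68). Col5a3 (chr9:20770050-20815117), a less common chain of the same type, ranked 73.4, 78.1, 79.0 and 78.4 (77.2 ± 2.57). Within type V the order Col5a1, Col5a2, Col5a3 held in each library with no overlap. Col24a1 (chr3:145292472-145552013), a chain known from developing bone and cornea, ranked 93.2, 93.6, 93.3 and 90.8 (92.7 ± 1.29), with its summit 979 to 1078 bp inside the start. Col27a1 (chr4:63214009-63334991), a chain known from cartilage and other epithelial and mesenchymal sites, ranked 87.1, 93.9, 93.5 and 94.1 (92.2 ± 3.4). Its annotated start lies inside the gene, and in replicates 1, 2 and 4 the summit was 1283 to 1352 bp downstream of it. Col24a1 and Col27a1 overlapped over the libraries, and both lay below Col5a1 in each.

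Col11a2 (chr17:34038919-34066684), a chain of type XI collagen best known from cartilage, ranked 69.1, 92.2, 93.6 and 98.7 (88.4 ± 13.2), and its range overlapped every other minor fibrillar gene. The peak counted for it also touches Rxrb, a nuclear receptor gene next to it, and in replicate 4 it was 21679 bp wide with its summit at −7188 bp, outside the gene, nearest Slc39a7. Its value is therefore not assigned to Col11a2 alone. Without replicate 1 its mean was 94.9. Other cartilage genes gave a mixed picture in the same libraries: Col2a1 and Col11a1 were open with mean ranks of 89.8 and 96.4, Col9a1 had no gene-end peak but had a start summit in all 4 libraries, and Acan, the main cartilage proteoglycan, had a peak in 2. The part of cartilage cells in the tissue was not tested. Without Col9a2, Col9a3, Col10a1 and Col11a2, 4 members known mainly from cartilage, 23 of 29 were open (79.3%), against 66.7% of all genes. Col27a1, also known from cartilage, stayed among the 29.

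Type VI collagen forms beaded filaments near cell surfaces from the chains of Col6a1, Col6a2 and a further chain. Col6a2 (chr10:76595756-76623630) had the highest gene-end rank of all 33 members, 98.8, 98.9, 99.3 and 99.5 (99.1 ± 0.33), from folds of 183, 56.9, 57.4 and 67.8. Col6a1 (chr10:76708792-76726044) had a mean of 92.3 ± 2.4, and Col6a3 (chr1:90766860-90844001) of 84.9 ± 4.91. Col6a2 was above Col6a1 in each library, and Col6a1 above Col6a3, although the lowest value of Col6a1 (88.8) and the highest of Col6a3 (88.7) nearly met.

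The alternatives to Col6a3, Col6a4 to Col6a6, lie side by side on chromosome 9 and looked different. Col6a6 (chr9:105689417-105828246) was open at low ranks of 25.2, 18.1, 30.9 and 45.7 (30.0 ± 11.7), below every value of Col6a1, Col6a2 and Col6a3. In replicate 2 its only gene-end peak was at the 3′ end. Its open state was lost with a q of 1e-05 or less, with lists of equal length and with a window of 0.5 kb. Col6a5 (chr9:105856070-105962463) was open only at its internal start, and Col6a4 (chr9:105990318-106096828) had no peak at an end or at its start in any library. Col6a4 nevertheless had a region open in all 4 libraries inside its body, at chr9:106038424-106040605, with ranks of 86.7, 84.4, 84.7 and 73.9.

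FACIT collagens sit on the surface of fibrils. Col16a1 (chr4:130047817-130099277) ranked highest of the 8, at 97.5, 97.2, 97.6 and 98.0 (97.6 ± 0.36), with the summit at −268 to −36 bp from the start. Col14a1 (chr15:55307644-55520803) and Col12a1 (chr9:79598987-79721141), both coats of type I fibrils, had means of 85.0 ± 6.07 and 80.7 ± 16.2. The Col12a1 mean joins different sites. In replicates 1 and 3 its summit lay 92 and 563 bp from the upper-coordinate end, at ranks of 62.0 and 72.3. In replicates 2 and 4 it lay 2421 and 2454 bp inside the gene, at 94.6 and 93.9. Col9a2 and Col9a3, chains of the cartilage FACIT type IX, had means of 77.0 ± 34.5 and 74.6 ± 14.2. Col9a2 ranked 25.2 in replicate 1 and 93.8 to 95.03 in the others, where the strongest summit was 1806 to 1948 bp inside the start, and its mean without replicate 1 was 94.3. Col20a1 (chr2:180983323-181017545) was lowest of the open FACIT genes, at 28.5, 79.4, 82.9 and 81.4 (68.0 ± 26.4), again with replicate 1 far below. Its peak also touches Arfgap1 with its summit at −3016 to −2037 bp from the annotated start. Col19a1 (chr1:24257683-24587922), known from muscle and brain, had a gene-end peak in replicate 3 alone, at 75.02. Col22a1 (chr15:71795795-72150979), a chain of tissue junctions such as muscle to tendon, had no gene-end peak.

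In the network-forming class, Col8a2 (chr4:126286794-126314330) ranked 79.3, 86.1, 91.2 and 91.1 (86.9 ± 5.60) and Col8a1 (chr16:57624256-57754737) 47.3, 73.3, 64.6 and 66.7 (63.0 ± 11.1). Both encode type VIII collagen, of blood vessels and the cornea, and Col8a2 was higher in every library, without overlap. Col10a1 (chr10:34389981-34397085) had no gene-end peak. Col7a1 (chr9:108953586-108984875), the anchoring fibril that holds epithelium to the tissue beneath, ranked 10.5, 75.1, 80.5 and 76.4 (60.6 ± 33.5). Replicate 1 was far below the others, and without it the mean was 77.4. Col7a1 was no longer open with a q of 1e-05 or less.

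Transmembrane collagens are anchored in the cell membrane with a collagenous outer part. Col23a1 (chr11:51289679-51583925) ranked 97.2, 98.8, 98.8 and 98.6 (98.3 ± 0.75). In replicates 2 to 4 this strongest peak lay at its 3′ end, next to Phykpl, and at its start the ranks were 97.2, 96.2, 96.8 and 96.9. Col25a1 (chr3:130180358-130599884), the longest member at 420 kb, had a mean of 97.6 ± 0.17. Col13a1 (chr10:61838234-61979206) was lowest of the 3 open genes, at 94.6, 94.9, 97.0 and 95.5 (95.5 ± 1.06). Its strongest summit lay 1884 to 1924 bp inside the start, and no library had a summit within 1 kb of the start, although the promoter holds 29 CpG. Col17a1 (chr19:47646341-47692042), the hemidesmosome collagen of basal epithelial cells, had no peak at its start in any library. Its 3′ end had a peak in replicates 1 and 3, at ranks of 55.9 and 18.4. Krt5, a keratin of basal cells, had none at either end.

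The remaining members were Col26a1 (chr5:136741759-136883376), which ranked 65.9, 90.6, 92.7 and 87.7 (84.2 ± 12.4), and Col28a1 (chr6:7997100-8193709), which had no gene-end peak. In Col26a1 the summit lay at −1779 to −1691 bp from the upper-coordinate end, inside the gene, in every library, and without replicate 1 the mean was 90.4. With the summit required within the window, Col11a2, Col12a1, Col24a1, Col26a1, Col27a1, Col8a2 and Col9a2 were no longer open.

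Peaks were not limited to the ends: they filled some collagen genes and left others almost bare. Over the body of Col1a1, peaks covered 47.1%, 84.0%, 92.0% and 86.9% of bases in replicates 1 to 4. The mean of 77.5% was at the 99.3rd percentile of the 7844 genes of comparable length, and in replicate 1 alone the percentile was 99.6. The other major fibrillar genes were sparsely covered, Col1a2 at 3.10% to 5.33% and Col3a1 at 3.31% to 5.49%, each library below every value of Col1a1. Thus the genes for both chains of type I collagen, both open at a gene end, differed in how far peaks spread along them.

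High coverage was also seen in Col8a2 (11.4%, 49.2%, 63.5% and 62.5%), Col16a1 (13.3%, 33.5%, 51.6% and 57.6%), Col6a1 (9.11%, 31.9%, 51.3% and 60.9%) and Col13a1 (16.0%, 29.1%, 45.3% and 43.2%). Replicate 1 was lowest in each of these. Set against genes of comparable length, the 5 highest means were those of Col1a1, Col13a1, Col16a1, Col8a2 and Col5a1, the last at 9.89% to 30.9%. Coverage was lowest in Col28a1 (0.136% to 0.342%) and Col8a1 (0.436% to 0.697%), and Col10a1 held no peak in its body in replicates 1 and 4. Over all members the median of the mean coverage was 10.9%, against 7.07% over all genes, and 20 of 33 were above that median.

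**Figure D3:**
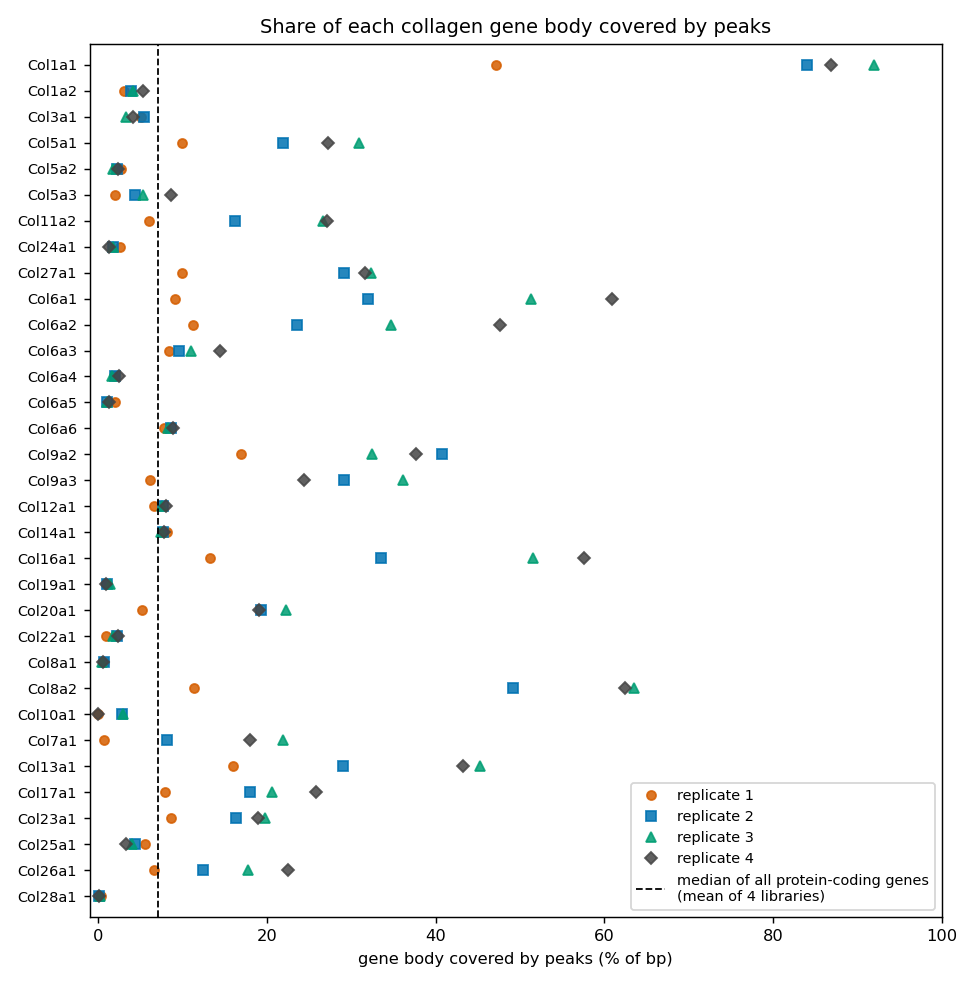
Percentage of each gene body covered by peaks in each of 4 libraries, for 33 collagen genes, with the median over all protein-coding genes as a dashed line at 7.07%. Col1a1 spans 47.1% to 92.0%, while Col1a2 and Col3a1 lie between 3.10% and 5.49%.

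Regions around the genes were then counted. Peaks of the 4 lists gave 307572 regions after merging. Every library had a peak in 66190 of them, and 495 distinct regions of that kind lay within 100 kb of a member, 351 of them distal (over 2 kb from any gene end). Per 100 kb searched, the median was 4.90 regions for members and 4.02 for all genes, and 19 of 33 members were above the latter. Without replicate 1 the medians were 6.78 and 5.52, with 17 of 33 above. For distal regions the medians were 3.25 and 1.95, and 22 of 33 members were above. Genes within the members' length range lay nearer the members, with medians of 4.35 regions and 2.30 distal regions per 100 kb. Those genes are shorter than most members, so length was not matched.

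With all 4 libraries the densest surroundings were those of Col6a2, Col13a1 and Col6a1, at 11.0, 10.9 and 9.67 regions per 100 kb (25, 37 and 21 regions), but this order turned without replicate 1. Col16a1, Col27a1 and Col1a1 then led at 18.3, 17.8 and 16.1 per 100 kb, ahead of Col13a1 at 15.8, Col6a2 at 14.9 and Col6a1 at 12.9. Col6a2 had 35, 63, 82 and 65 peaks within 100 kb in replicates 1 to 4, Col13a1 61, 97, 115 and 103, and Col6a1 36, 57, 62 and 54. Replicate 1, the shortest list, had the fewest peaks at each. The most regions in number were near Col23a1 (41), Col13a1 (37) and Col5a1 (29), just ahead of Col27a1 (28), with 75, 126, 162 and 118 peaks at Col23a1 and 41, 76, 112 and 91 at Col5a1. Without replicate 1 the order turned here too, with 57 regions near Col27a1, 54 each near Col13a1 and Col23a1, and 41 near Col5a1. Col27a1 had 41, 122, 134 and 118 peaks. At the other extreme were Col28a1, Col22a1 and Col8a1, at 0.756, 1.44 and 1.82 regions per 100 kb (3, 8 and 6 regions). Their peak numbers were 8, 8, 10 and 10 for Col28a1, 7, 11, 11 and 14 for Col22a1, and 17, 18, 18 and 18 for Col8a1. Gene-end rank and surroundings did not always go together: Col3a1 had 5 regions (2.10 per 100 kb) and Col25a1 2.74 per 100 kb, both below the median of all genes. Without replicate 1, the density of Col10a1, Col11a2, Col16a1, Col1a1, Col27a1, Col5a3, Col6a4, Col7a1 and Col8a2 rose by more than 1.5 times, and leaving out another library moved none that far.

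**Figure D4:**
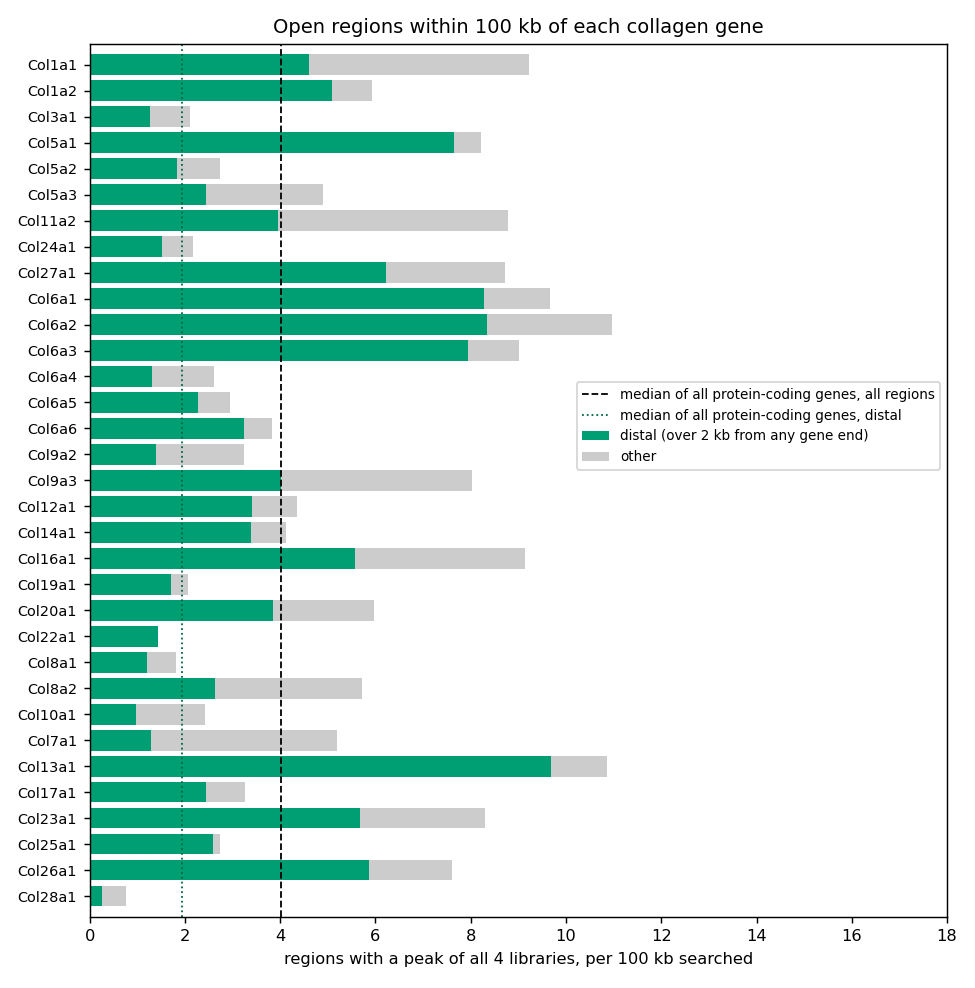
Regions with a peak of all 4 libraries per 100 kb of DNA searched around each of 33 collagen genes, split into distal regions (over 2 kb from any gene end) and others; the lines mark the medians over all protein-coding genes, 4.02 for all regions and 1.95 for distal ones. Col6a2 and Col13a1 reach 11.0 and 10.9, and Col28a1 0.756.

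The strongest distal regions of several members ranked as high as the gene ends. Each was picked as the highest of many, from 33 distal regions at Col13a1 and 18 at Col6a1. High ranks therefore follow in part from the choice. The highest distal region inside a member was in Col13a1, at chr10:61918221-61923359, with ranks of 99.6, 98.7, 99.0 and 99.0, a distance of 58.3 kb from the start. Col6a1 had one at chr10:76730164-76736527, 4.12 kb outside the gene on the start side, at 98.7, 98.2, 98.8 and 98.9. Col27a1 had one at chr4:63183683-63188008, 26.0 kb outside the gene, at 97.5, 98.7, 98.2 and 98.9. Near the type I genes, a region 51.3 kb below Col1a1 (chr11:94880065-94884924) ranked 98.0, 96.9, 97.9 and 98.1. Another, 14.8 kb below Col1a2 (chr6:4487491-4490853), ranked 97.7, 95.9, 97.2 and 96.8, above the Col1a2 start in replicates 1 to 3 and below it in replicate 4. None of these overlaps another protein-coding gene except its own, and which gene each acts on cannot be told from peaks.

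Neighbouring members shared regions. Col3a1 and Col5a2, fibrillar genes next to each other on chromosome 1, shared 5 regions. The strongest distal one for both, chr1:45379870-45380944, lies inside Col5a2 and ranked 96.4, 90.9, 93.5 and 91.8, with replicate 1 highest. Col6a5 and Col6a6 shared 7 regions, of which the strongest (chr9:105763866-105765668, inside Col6a6) ranked 91.1, 94.3, 92.1 and 92.2, far above the Col6a6 gene end. Near Col19a1, 23.6 kb outside the gene, chr1:24611535-24616179 had folds of 3545, 2089.6, 1704 and 1667, at the very top of each list. Whether it is a sequence present in many copies was not tested.

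The Col6a1 and Col6a2 genes lie next to each other on chromosome 10 and shared 19 regions, the most of any pair. The stretch between them held a row of distal regions, the strongest being chr10:76663518-76665591 (98.0, 96.7, 97.6 and 98.2) and chr10:76680775-76683007 (97.6, 93.9, 96.6 and 96.9). Both exceeded the rank of the Col6a1 start in every library. Both genes also had a peak at the 3′ end in all 4 libraries.

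**Figure D5:**
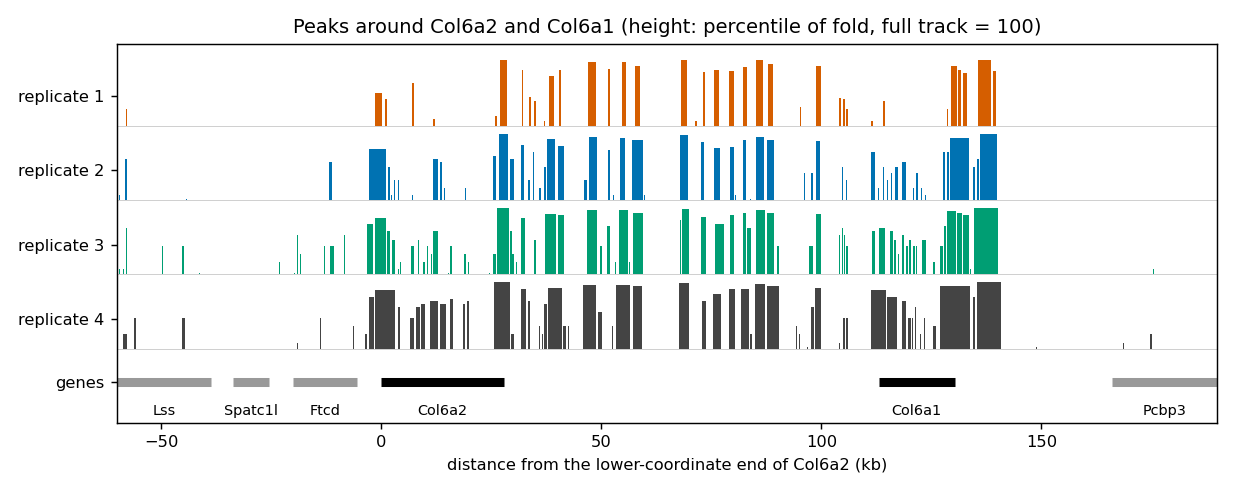
Peaks of the 4 libraries around Col6a2 and Col6a1, drawn as boxes at their distance (kb) from the lower-coordinate end of Col6a2, with height as the percentile of fold enrichment within the library and genes below. Many of the peaks between the genes recur in all 4 libraries and others appear in fewer, while peaks inside Col6a1 are fewer in replicate 1, whose coverage of that gene is 9.11% against 60.9% in replicate 4.

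To see where regions lay along the gene, the bodies of the 26 members with a strand were cut into 5 equal stretches from the start. Of 131 regions, 26.7% lay in the first stretch and 16.8%, 22.1%, 16.8% and 17.6% in the following ones. In genes of the same length range these shares were 34.7%, 16.8%, 16.0%, 15.7% and 16.9%. The members' share was thus lower in the first stretch and higher in the middle one, but length was not matched. Median length was 28.1 kb in the comparison genes and 106 kb over all 33 members. Col23a1 and Col13a1 had the most regions touching their bodies, 24 and 20. Regions of 1 gene are not independent, so this is a description.

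Genes that make and handle collagen were taken from 5 lists. Of 62 such genes 55 were open (88.7%), against 66.7% of all genes and 75.7% of genes within the length range of the members. Without replicate 1, 57 were open, against 70.4% of all genes. The median length of the 62 was 35.2 kb, against 17.2 kb over all genes, and length was not matched. Among folding and hydroxylation enzymes and chaperones 16 of 18 were open. The highest was P4hb, the protein disulfide isomerase subunit of prolyl 4-hydroxylase, with a mean rank of 99.9, followed by P4ha1, P3h4 and Fkbp10 at 99.3. P3h4 and Fkbp10 shared 1 peak, and the P4hb peak also touches Arhgdia. All 8 secretion genes were open, led by Sec23a, a coat protein of export vesicles, and Creb3l2, a factor for secretory genes, both at 99.7. Of 13 processing and cross-linking genes 12 were open, led by Loxl3, a lysyl oxidase, at 99.4 and Bmp1, the procollagen C-proteinase, at 97.0. The Sec23a peak also touches Gemin2, and the Loxl3 peak touches Aup1, Dqx1 and Htra2. The Bmp1 peak touches Sftpc, a surfactant gene of lung epithelium, and Tll2, a relative of Bmp1, had no gene-end peak. Of 13 fibril-associated proteoglycans and glycoproteins 11 were open, led by Sparc, a collagen chaperone of the matrix, at 98.6 and Thbs1 at 97.8, and Lum and Aspn had a peak in 3 and 2 libraries. Of 10 receptors 8 were open, led by Itgb1, the common integrin β1 chain, at 97.4 and Mrc2, an endocytic collagen receptor, at 95.7. Lair1 and Gp6, receptors of leukocytes and platelets, had none, and the leukocyte gene Ptprc had none either.

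The basement membrane collagens, which the rule leaves out, were open in 8 of 8 cases, with a median rank of 79.1 and none at 95 or more. All 8 also had a summit within the window, against 19 of the 33 members. Unlike the basement membrane collagens, the members thus held both ranks of 95 or more and genes that were not open. The members at 95 or more were 8 of 33 (24.2%), a smaller share than the 31.0% of all genes. Col4a1 with Col4a2, and Col4a3 with Col4a4, each share 1 gene-end peak, and Col4a5 with Col4a6 do so in replicate 4. These genes are therefore not independent of each other.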

How the data were processed

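ATAC-seq was carried out on 60000 nuclei per library, per the labels. MACS3 3.0.1, bedtools 2.31.0, deepTools, SAMtools 1.18, Bowtie2 2.5.2, Trim Galore, FastQC 0.12.1 and build mm10 are named in the submitters' processing notes. Their roles and parameters, and any shift of reads for the Tn5 cut, are not given in the sources used here. The authors deposited 1 narrow peak list per library, with a fold enrichment (a ratio), −log10 p and −log10 q values, a score and a summit offset in bp for each peak. The deposited fold was used only to rank peaks within a list and the deposited −log10 q only for a stricter filter, while the score and −log10 p were not analysed. The total of reads per library was not analysed here, and depth is known only through the number of peaks.

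Peaks of the 19 autosomes and of X and Y entered the counts, and 1245 to 1814 peaks per library on other contigs were left out. Gene ends came from RefSeq on GRCm38.p6, and strand and starts from its promoter table. A gene was open when each library had a peak overlapping 1 kb either side of a gene end, and its rank was the mean over libraries of the percentile of the strongest such peak. Overlapping peaks were merged into regions. Comparable length meant 0.5 to 2 times the gene's own. Python 3.11.15, NumPy 2.4.6 and SciPy 1.17.1 were used, and the interval counts were tested on simulated data. With 1 group no test between groups was made, and members were read against all genes.

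The members, classes and lists were chosen with earlier results of these data known. Every member was named. A marker of another organ is not reported here. Values in all libraries were given for the fibrillar and beaded-filament genes, for the highest and lowest open gene of each other class, for genes with peaks in 1 to 3 libraries, and for peak numbers of the genes with the most regions and the highest and lowest density. From each pathway list the 2 genes of highest rank and those without peaks were named. Alternatives were windows of 0.5 and 2.5 kb, summits inside the window, leaving out each library, a q of 1e-05 or less, a peak in at least 3 of 4 libraries, lists cut to equal length, starts only, a reach of 50 kb, bodies or flanks only, and overlap of 50% of the smaller peak. Leaving out Col9a2, Col9a3, Col10a1 and Col11a2 was added after seeing the data.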

Additional observations from a re-analysis of the deposited data

Results flagged for a closer look

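Of 59 groups of 4 library values examined, 12 held a library whose gap to the nearest other was large for the group's range. The limit used is crossed in about 1 in 20 groups of independent normal values, and these ranks and counts share libraries. The share over all genes is not given here, so the 12 are a description. In 10 of the 12 groups the library standing apart was replicate 1, which gave the lowest gene-end rank in 89.1% of all open genes. Its gene-end rank stood below the other libraries at Col1a1 (97.0 against 97.7 to 97.8), Col20a1 (28.5 against 79.4 to 82.9), Col23a1 (97.2 against 98.6 to 98.8), Col27a1 (87.1 against 93.5 to 94.1), Col5a3 (73.4 against 78.1 to 79.0), Col7a1 (10.5 against 75.1 to 80.5), Col9a2 (25.2 against 93.8 to 95.03) and Col9a3 (53.3 against 80.0 to 82.9). Its number of peaks within 100 kb stood below the others at Col16a1 (45 against 96 to 105) and, by a single peak, at Col8a1 (17 against 18).

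In the other 2 cases replicate 4 had the lowest gene-end rank of Col24a1 (90.8 against 93.2 to 93.6), and replicate 3 had the most peaks within 100 kb of Col1a2 (34 against 24 to 25).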

How the results depend on the processing

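The number of open members lay between 19 and 29 over all alternatives, and was 26 with each library left out. The median gene-end rank of 84.9 fell to 71.8 with a q of 1e-05 or less and to 60.6 with the summit required inside the window, where the medians of all genes fell to 78.1 and 81.1. It ranged from 83.2 to 87.8 with 1 library left out. The median of 4.90 regions per 100 kb rose to 8.03 when a peak in at least 3 of 4 libraries was enough (6.20 over all genes), and ranged from 4.90 to 6.78 with 1 library left out. With 1 library left out, 14 to 15 members had a start summit and 55 to 57 pathway genes were open. A q of 1e-05 or less closed Col6a6 and Col7a1, and a window of 2.5 kb opened Col17a1, Col19a1 and Col6a5. Of 323 recomputed ranks of single members, 274 moved by no more than 1 SD. Leaving out 1 of 4 libraries cannot move a mean by 1 SD, so those ranks had to fall within the limit. Members with no gene-end peak in any library also stay at 0 unless a setting adds a peak. The count of 274 is therefore no measure of stability. Of 363 densities, 290 moved by no more than 1.5 times. No paired analysis was possible because all 4 libraries form 1 group. Without read totals, a missing peak cannot be told from low depth.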
